A study of Caenorhabditis elegans with 32 samples.

Results

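The proteasome genes of C. elegans were taken here as all genes whose WormBase symbol is pas, pbs, rpt or rpn followed by a number. The rule gave 33 of the 46748 genes listed: 14 of the 20S core particle (7 pas and 7 pbs genes) and 19 of the 19S regulatory particle (6 rpt and 13 rpn genes). The rule reads symbols only and no measured value, but it was set with earlier results of these data known. The libraries came from worms of the strain WBM1339, whose muscle ribosomes carry a FLAG tag. Worms grown on OP50 bacteria were bleached when gravid, and the synchronized L1 larvae were placed on bacteria for dimt-1 RNAi or on control (EV) bacteria and collected as young adults. DIMT-1 is an 18S rRNA methyltransferase. RNA bound to the tagged ribosomes was pulled down with anti-FLAG (translating ribosome affinity purification, TRAP), total RNA served as the input, and polyadenylated RNA was sequenced, with 4 libraries for each RNAi in each fraction. The labels call the input muscle total RNA and name no step that would separate muscle from other tissue. Every worm in these groups carried the tag. The promoter that drives it is not given in the sources used here. The labels call the libraries of a group biological replicates but do not say whether they came from separate cultures, so p-values measure the spread between these libraries, which may in part be technical. The 16 germline libraries of the series were not analysed here.

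The proteasome is the protease that degrades proteins marked with ubiquitin. The core is a barrel with outer rings of alpha subunits (pas) and inner rings of beta subunits (pbs), of which PBS-1, PBS-2 and PBS-5 correspond to the catalytic ones. The regulatory particle caps the barrel: a ring of RPT ATPases unfolds the substrate, and RPN subunits bind ubiquitin chains, remove them and hold the particle together. When proteasome function is impaired in worms, the transcription factor SKN-1 raises the mRNA of many subunit genes.

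All 33 genes passed the low-count filter in every comparison, and no subunit was at 0 in any library. The lowest count was 184, of rpn-6.2, and the lowest without that gene was 1387. Libraries held 34794250 to 49782576 counts in all. The 12 body wall muscle markers were all higher in TRAP than in total RNA (median log2 fold change 4.08 on dimt-1 RNAi and 4.34 on EV), and 7 of 8 germline markers were called lower in TRAP on dimt-1 RNAi and 8 of 8 on EV. The 5 pharyngeal muscle markers were not enriched as a list (median -0.78 on dimt-1 RNAi and -0.74 on EV). Of 8 intestine markers, 3 were called lower in TRAP on both RNAi. Of 8 neuron markers, 3 were called higher on both, and 1 lower on dimt-1 RNAi and 3 lower on EV. Over all genes, 9.34% were called lower and 15.6% higher on dimt-1 RNAi, and 26.5% lower and 15.7% higher on EV. The intestine and neuron counts are a description only. The targeted gene, dimt-1 (E02H1.1), had 28.3, 32.0, 39.2 and 25.9 CPM (counts scaled to a common library size) in total RNA of dimt-1 RNAi worms, against 37.7, 41.7, 40.5 and 37.3 CPM on EV. The library labelled dimt-1 RNAi 3 thus lay inside the EV range, and the difference between the groups did not pass the test (exact two-sided permutation test, p = 0.0857, smallest possible p = 0.0286). In TRAP the values were 11.8, 12.7, 9.84 and 20.4 CPM on dimt-1 RNAi, against 14.4, 6.58, 8.34 and 9.82 CPM on EV (p = 0.2 by the same exact test). Total RNA results are therefore given with and without the library labelled dimt-1 RNAi 3.

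Sequence upstream of the annotated starts is shown because the core and the regulatory genes differed in it. In C. elegans many messages receive a spliced leader, and the annotated start of such a gene lies directly after a splice acceptor that ends in AG, rather than at the first base transcribed. In the WBcel235 sequence with the Ensembl annotation, the bases before the start ended in TTTCAG or TTTTAG, the shape of a worm splice acceptor, in 9 of 14 core genes (64.3%) and 2 of 19 regulatory genes (10.5%), against 13.5% of 19973 protein-coding genes. Any AG end was found in 13 of 14 core genes, 11 of 19 regulatory genes and 27.6% of all protein-coding genes. The 4 core genes that follow are all among the 9 with TTTCAG or TTTTAG, and none of the 3 regulatory genes ends in AG. These 3 do not represent the 19 regulatory genes, of which 11 end in AG. The regulatory genes rpn-9, rpt-1, rpt-4 and rpt-6, for example, end in CAG. The last 40 bases before the start are given 5′ to 3′ on the gene's strand, with TTTCAG or TTTTAG in capitals.
pas-2 (alpha subunit, chrV:10770328-10770367, plus strand): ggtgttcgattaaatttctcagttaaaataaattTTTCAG
pas-6 (alpha subunit, chrV:5584344-5584383, minus strand): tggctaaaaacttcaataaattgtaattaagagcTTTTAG
pbs-3 (beta subunit, chrII:4955428-4955467, minus strand): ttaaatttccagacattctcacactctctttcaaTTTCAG
pbs-6 (beta subunit, chrIII:8244093-8244132, minus strand): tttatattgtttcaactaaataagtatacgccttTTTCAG
rpn-2 (scaffold, chrIII:6199144-6199183, plus strand): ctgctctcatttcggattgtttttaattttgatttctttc
rpn-6.1 (lid, chrIII:6962002-6962041, minus strand): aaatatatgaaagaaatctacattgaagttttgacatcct
rpn-11 (deubiquitinase, chrII:4044547-4044586, minus strand): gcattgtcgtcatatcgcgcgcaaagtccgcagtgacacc

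The letters of a SKN-1 core site, TGTCAT or TATCAT on either strand, were searched in the 250 bases before each start. They were present in 5 of 14 core genes (35.7%) and 7 of 19 regulatory genes (36.8%), against 26.8% of all protein-coding genes. Such a match is a description of the letters only. The windows of pbs-1, the catalytic beta subunit with the highest level, and of rpn-6.1, the regulatory subunit with the highest ratio of TRAP to total RNA, are printed with the matches in capitals.
pbs-1 (chrIV:1709746-1709995, minus strand): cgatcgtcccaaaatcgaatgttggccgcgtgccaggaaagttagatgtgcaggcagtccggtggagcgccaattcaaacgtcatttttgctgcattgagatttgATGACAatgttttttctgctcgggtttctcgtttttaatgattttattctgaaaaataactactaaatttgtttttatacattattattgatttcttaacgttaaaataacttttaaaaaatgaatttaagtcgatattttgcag
rpn-6.1 (chrIII:6962002-6962251, minus strand): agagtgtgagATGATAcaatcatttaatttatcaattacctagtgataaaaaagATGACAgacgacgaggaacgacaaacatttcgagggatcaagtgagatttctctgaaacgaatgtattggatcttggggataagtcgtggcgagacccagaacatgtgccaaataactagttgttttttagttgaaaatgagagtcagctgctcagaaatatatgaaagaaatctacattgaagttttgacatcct

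Levels of different genes were compared as CPM per kb of exon. On dimt-1 RNAi 12 of the 14 highest of the 33 medians were core genes, in TRAP and in total RNA alike. In total RNA on EV the 14 highest were the 14 core genes, from 451 CPM per kb for pbs-1 to 214 CPM per kb for pas-1, and the highest regulatory gene was rpt-2, an ATPase, with 204 CPM per kb. The median over core genes was 207 CPM per kb on dimt-1 RNAi and 268 CPM per kb on EV, and that over regulatory genes 140.2 CPM per kb on dimt-1 RNAi and 154 CPM per kb on EV. By this measure subunits of 1 particle were not at equal mRNA levels. Neighbours in the order mostly could not be separated: 26 of 32 neighbouring pairs overlapped in range. The order rests on the division by exon length, and a bias of that division was not tested. Exons cover 801 (pbs-4) to 1059 bases (pbs-5) in core genes, 855 in rpn-12, 3171 in rpn-1 and 3166 in rpn-2. Without the division, mean log2 CPM of core minus regulatory genes in EV total RNA was 0.26 to 0.32, and 0.08 to 0.13 without rpn-6.2. The clear steps at the low end were rpn-1 and rpn-2, the large scaffolds (102 and 75.5 CPM per kb), and rpn-6.2, a second gene of the rpn-6 family, with 14.8 CPM per kb, against 125 CPM per kb for rpn-6.1. In TRAP on EV pbs-1 was again highest, with 236 CPM per kb, and rpn-6.2 lowest, with 4.68 CPM per kb, and 13 of the 14 highest genes were core genes; the regulatory gene among them was rpn-12.

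**Figure D1:**
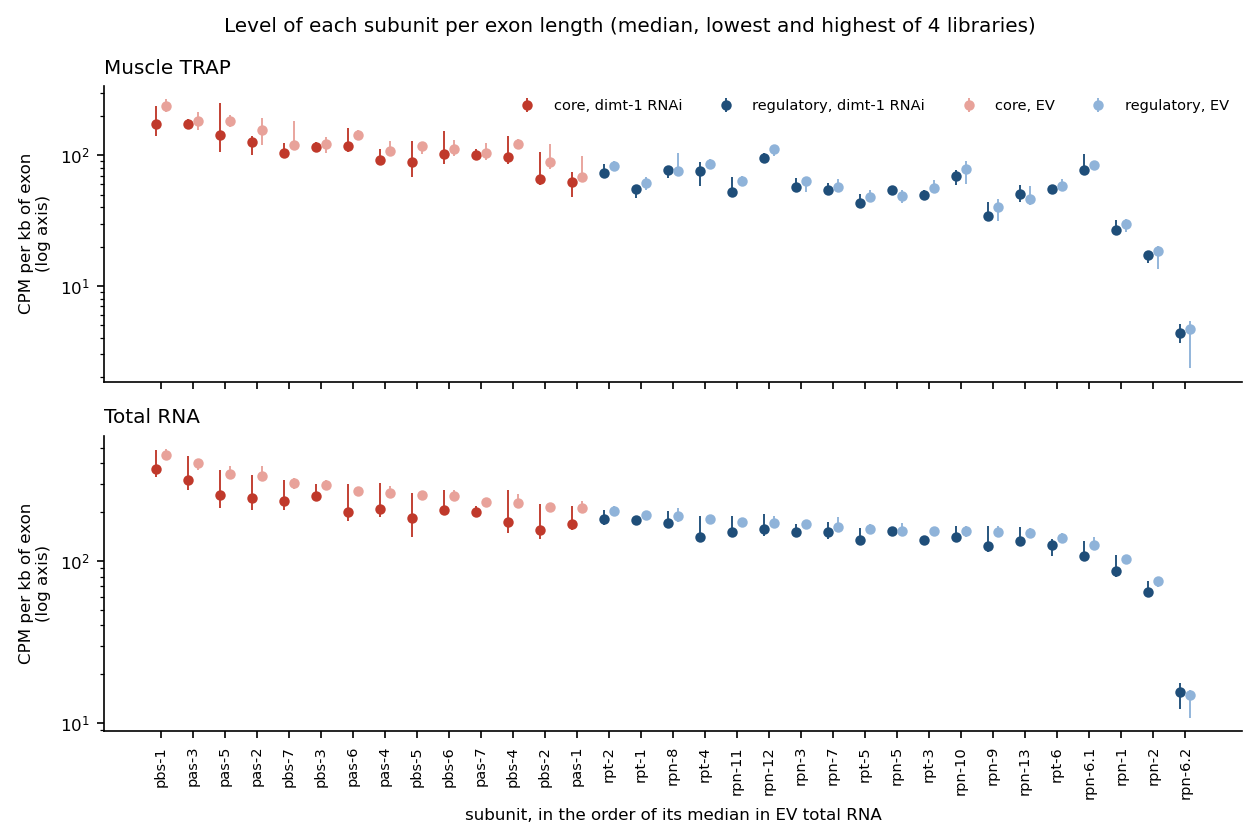
Level of each of the 33 subunits in CPM per kb of exon (log axis) in TRAP (upper panel) and total RNA (lower panel), with dimt-1 RNAi left of EV for each gene; points are medians and bars the lowest and highest of 4 libraries. Core genes fill the left of the EV total RNA order, and rpn-1, rpn-2 and rpn-6.2 stand at its end.

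The first question was whether dimt-1 RNAi changed the amount of subunit mRNA in total RNA. With all 4 libraries a group, edgeR's quasi-likelihood test called 0 of 33 subunits, as it called 0 of the 15441 genes tested (0%), although 15 subunits and 2504 genes had an unadjusted p under 0.05. The fitted log2 fold changes were below 0 for 32 of 33 subunits, the exception being rpn-6.2 (0.12, 95% interval -0.18 to 0.42), and had a median of -0.28 over the core and -0.14 over the regulatory particle, against 0.01 over all genes. DESeq2 called 2 subunits (pas-2 and rpt-3, with 659 genes in all), and limma voom with library quality weights called 22, all lower, where 5.9% of genes were called lower. The quality weights are estimated from these same libraries, and a library unlike its group counts for less. The weight of each library was not examined, so the 22 calls are not separate support. In bulk RNA, fewer cells of a type and less RNA per cell cannot be told apart.

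The 4 dimt-1 RNAi libraries were not alike. Libraries 1, 2 and 4 each had all 14 core genes below every EV library, and 17, 16 and 14 of the 19 regulatory genes. The library labelled dimt-1 RNAi 3 had 1 core gene below the EV range, 8 inside it and 5 above it, and 1, 14 and 4 regulatory genes in the same places. For single libraries the share over all genes was not computed, so these counts are a description only. With all 4 libraries, only pas-7 and rpt-3 had no overlap between the groups, where 3.19% of genes were lower without overlap. Without library 3, this held for 14 of 14 core and 13 of 19 regulatory genes, where it held for 13.1% of genes.

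When the library labelled dimt-1 RNAi 3 was left out, edgeR called 26 of 33 subunits, all lower, where 8.03% of 15845 genes were called lower. These were 14 of 14 core genes and 12 of 19 regulatory genes. The core genes fell by 0.21 (pas-7) to 0.59 (pbs-5) on the log2 scale, and mean CPM of the 3 libraries differed from that of EV by -13.4% to -33.5% (median -25.2%), against a median of -13.4% over regulatory genes. Leaving out any of the other 7 total RNA libraries gave 0 called subunits. The library labelled dimt-1 RNAi 3 was set apart after its values were known. Leaving out a library that sits with EV raises the difference and lowers the spread of its group. The calls and adjusted p-values without it, here and below, rest on that choice.

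Among the catalytic subunits, pbs-5, of the chymotrypsin-like site, had 149, 185, 280 and 206 CPM on dimt-1 RNAi, against 271, 284, 268 and 260 CPM on EV. Its log2 fold change was -0.40 ± 0.14 (SE, n = 4 each; adjusted p = 0.207, edgeR) and -0.59 ± 0.09 without library 3 (adjusted p = 0.00025). Libraries 1, 2 and 4 lay below all EV libraries, and library 3 inside the EV range. For pbs-2, of the trypsin-like site, values were 137, 145, 225 and 170 CPM on dimt-1 RNAi, against 212, 223, 230 and 209 CPM on EV, with a log2 fold change of -0.37 ± 0.13 (adjusted p = 0.197) and -0.54 ± 0.08 without library 3 (adjusted p = 0.000156). pbs-1, of the caspase-like site, had 271, 288, 396 and 322 CPM, against 379, 402, 363 and 358 CPM on EV (log2 fold change -0.23 ± 0.10, adjusted p = 0.296; without library 3 -0.35 ± 0.07, adjusted p = 0.00244). All 3 catalytic genes therefore had the same order of libraries, with library 1 lowest and library 3 highest of the dimt-1 RNAi group.

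The core genes at the ends of the fitted range were alpha and beta subunits. pas-2 had 173, 200, 284 and 214 CPM on dimt-1 RNAi, against 283, 325, 281 and 280 CPM on EV, and the most negative log2 fold change of all subunits (-0.42 ± 0.12, adjusted p = 0.149; without library 3 -0.58 ± 0.08, adjusted p = 0.000109). pas-7 had the narrowest spread of the core, with 190, 194, 215 and 201 CPM, against 232, 230, 221 and 219 CPM on EV. Here library 3 too was below every EV library, and the log2 fold change was -0.17 ± 0.06 (adjusted p = 0.197). pbs-3, another beta subunit, was next to it in size, with 206, 206, 255 and 219 CPM, against 267, 256, 242 and 236 CPM on EV (-0.18 ± 0.08, adjusted p = 0.29; without library 3 -0.25 ± 0.06, adjusted p = 0.0123).

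In the regulatory particle the ATPase gene rpt-4 had the most negative value. It had 190, 202, 275 and 208 CPM on dimt-1 RNAi, against 251, 278, 275 and 255 CPM on EV (log2 fold change -0.28 ± 0.10, adjusted p = 0.223; without library 3 -0.41 ± 0.06, adjusted p = 0.000376). The lid gene rpn-9 was next, with 150.4, 153.8, 216.5 and 172.5 CPM, against 203, 217, 195 and 190.5 CPM on EV (-0.22 ± 0.10, adjusted p = 0.327; without library 3 -0.34 ± 0.07, adjusted p = 0.00291). Annotated exons of both genes overlap a gene on the other strand, over 7.05% of the exon bases of rpt-4 and 10.6% of those of rpn-9 (20.7% for rpn-7 and 9.11% for pbs-4), and whether counting used strand is not given in the sources used here. rpn-6.1, a lid subunit whose raised level protects worms from protein damage, had 170, 171, 218 and 184 CPM on dimt-1 RNAi, against 203, 232, 209 and 203 CPM on EV (-0.19 ± 0.09, adjusted p = 0.3; without library 3 -0.28 ± 0.07, adjusted p = 0.00922). rpn-11, the deubiquitinase of the lid, had 177, 176, 235.3 and 197 CPM, against 210, 229, 213 and 215 CPM on EV (-0.14 ± 0.09, adjusted p = 0.454; without library 3 -0.24 ± 0.06, adjusted p = 0.0167). In these 4 genes library 3 was again inside or above the EV range.

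Not all regulatory genes shared the pattern. Without library 3 the 7 genes that did not pass were rpn-5, rpn-6.2, rpn-7, rpn-8, rpn-10, rpn-12 and rpt-1. rpn-5, a lid subunit, had 261, 266, 272 and 255 CPM on dimt-1 RNAi, against 293, 267, 255 and 259 CPM on EV, with a log2 fold change of -0.03 (95% interval -0.15 to 0.10; adjusted p = 0.88) and -0.04 without library 3 (adjusted p = 0.735). rpn-10, a ubiquitin receptor, had 175, 182, 211 and 180 CPM, against 180, 202, 193 and 212 CPM on EV (-0.07 ± 0.08, adjusted p = 0.681; without library 3 -0.14 ± 0.06, adjusted p = 0.185). Both had groups that overlapped. rpn-6.2 had 27.6, 23.4, 19.1 and 25.2 CPM, against 23.9, 16.7, 22.3 and 24.9 CPM on EV, and here library 3 was the lowest of the dimt-1 RNAi group (without it, log2 fold change 0.21 ± 0.14, adjusted p = 0.377). A p above the threshold does not show that levels were equal.

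**Figure D2:**
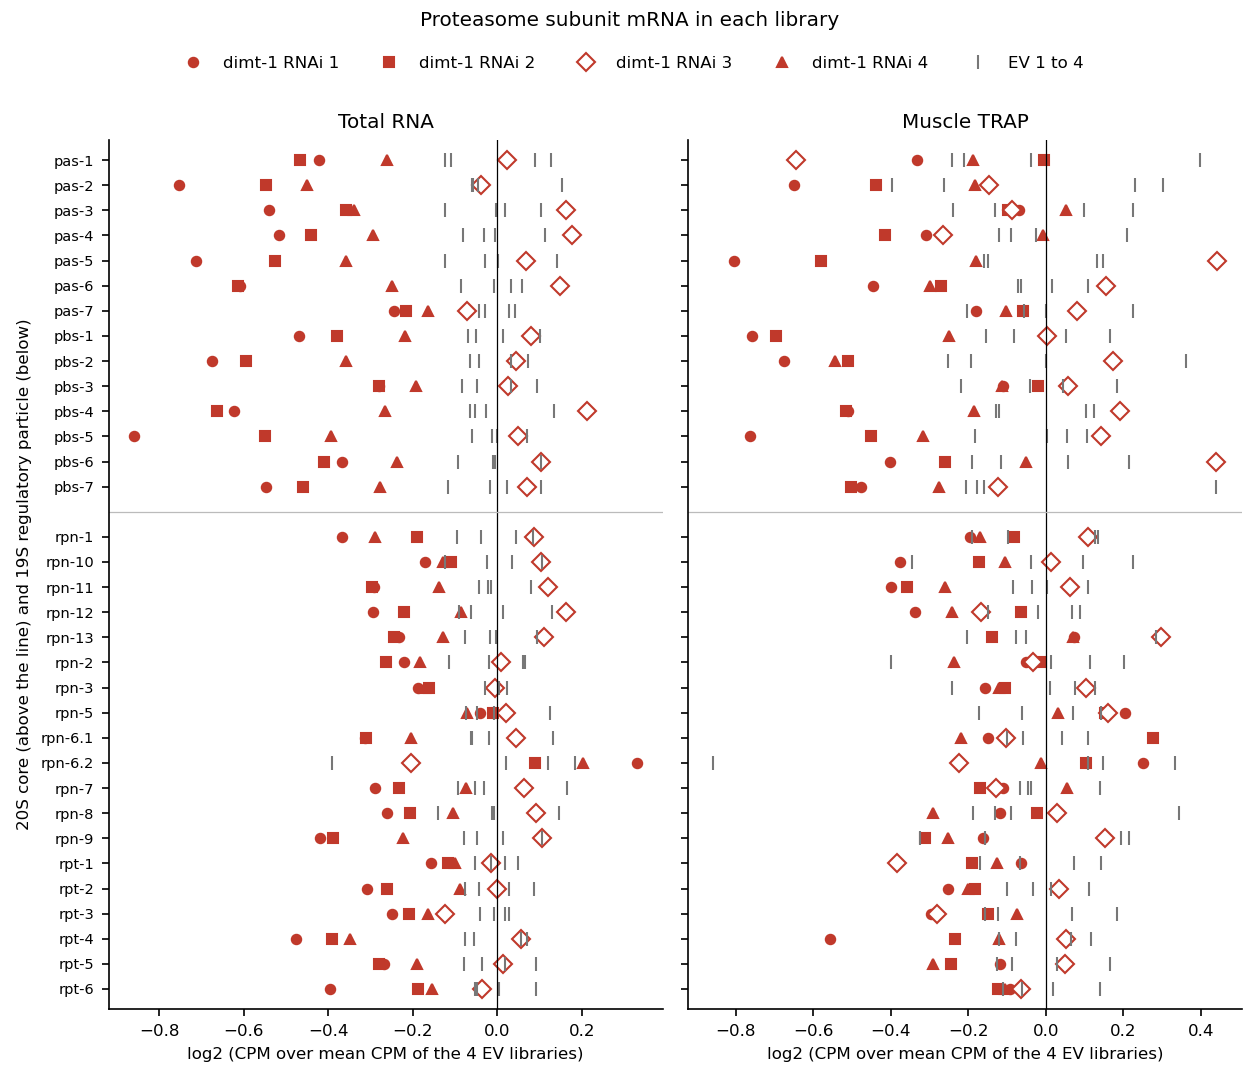
Each subunit (rows; core above the grey line, regulatory particle below) in each library as log2 of its CPM over the mean CPM of the 4 EV libraries, for total RNA (left) and muscle TRAP (right). Filled red symbols are dimt-1 RNAi libraries 1, 2 and 4, open diamonds the library labelled dimt-1 RNAi 3 and grey ticks the 4 EV libraries; in total RNA the filled symbols of all 14 core genes lie left of every grey tick, and the diamonds lie among or right of the ticks for every core gene but pas-7.

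The core differed from the regulatory particle within single libraries, which a common scaling of a library leaves nearly unchanged. The mean log2 CPM of the core minus that of the regulatory particle was -0.02, 0.03, 0.33 and 0.14 in total RNA on dimt-1 RNAi, against 0.30, 0.32, 0.26 and 0.26 on EV. Libraries 1, 2 and 4 lay below every EV library, and library 3 above every EV library. The means were 0.12 ± 0.15 and 0.29 ± 0.03 (SD, n = 4 each), and without library 3 the dimt-1 RNAi mean was 0.05 ± 0.08 (n = 3). In TRAP the same difference was 0.27, 0.34, 0.63 and 0.53 on dimt-1 RNAi, against 0.64, 0.61, 0.51 and 0.56 on EV. Here libraries 1 and 2 lay below every EV library, and libraries 3 and 4 inside the EV range. Library 3 had the highest value of its group in both fractions. No test was run on this difference. The summed level of the 14 core genes in total RNA was 2522, 2679, 3872 and 2999 CPM on dimt-1 RNAi, against 3636, 3913, 3610 and 3519 CPM on EV, and that of the 19 regulatory genes was 3675, 3794, 4543 and 3964 CPM, against 4306, 4661, 4411 and 4281 CPM.

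**Figure D3:**
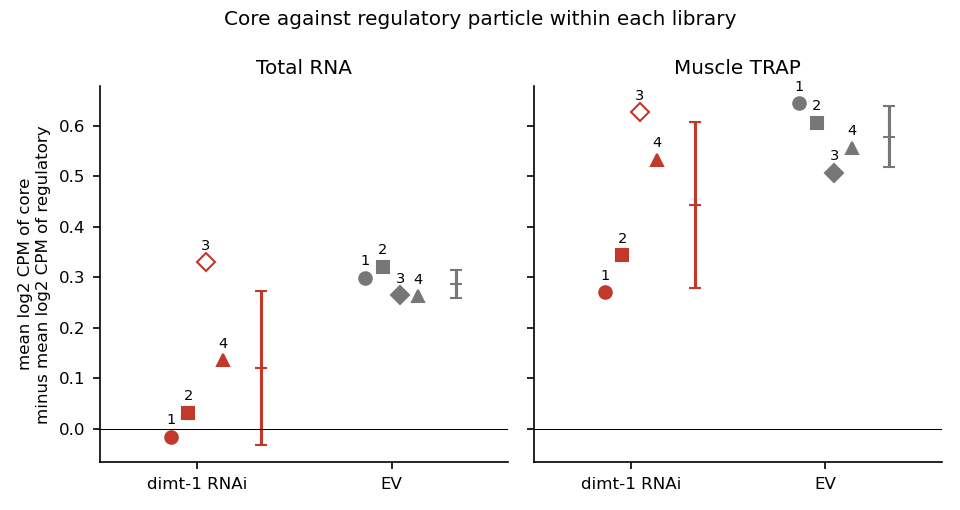
Mean log2 CPM of the 14 core genes minus that of the 19 regulatory genes in each library (numbered), for total RNA (left) and TRAP (right), with dimt-1 RNAi left of EV; bars give the mean and SD of 4 libraries. In total RNA, dimt-1 RNAi libraries 1, 2 and 4 sit between -0.02 and 0.14, below the EV libraries at 0.26 to 0.32, and library 3 (open) sits at 0.33.

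Some markers of other tissues moved with the subunits across the total RNA libraries. The summed level of 8 intestine markers was 20170, 20830, 32210 and 25430 CPM on dimt-1 RNAi, against 29390, 33550, 29600 and 29000 CPM on EV, so that libraries 1, 2 and 4 were again below and library 3 inside the EV range. Without library 3, 7 of the 8 were called lower, where 8.03% of genes were, and none was at 0 in total RNA. The sperm markers, 20 symbols in 22 rows, went the other way, with a sum of 560, 305, 128 and 638 CPM, against 157, 143, 121 and 143 CPM on EV, and 19 of 21 tested were called higher without library 3, where 6.99% of genes were. Of these rows, 1 was at 0 in at least 1 dimt-1 RNAi library of total RNA and 2 in at least 1 EV library. All 5 pharyngeal muscle markers were called higher without library 3 as well. Other lists moved less: in the same fit 3 of 12 body wall muscle, 1 of 8 neuron and 1 of 8 germline markers were called higher, 1 of 7 oocyte markers was called lower, and of 6 hypodermis markers 1 was called higher and 1 lower. The part of these differences in the subunit values was not tested.

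Other genes of the pathway were followed by 4 lists. In total RNA 0 of the 34 genes found were called with all libraries. Without the library labelled dimt-1 RNAi 3, where 8.03% of all genes were called lower, 2 of 10 partners of the proteasome were lower: usp-14, a deubiquitinase that works on the regulatory particle, and ubh-4, another. Their log2 fold changes were -0.29 ± 0.07 (adjusted p = 0.0106, edgeR) and -0.26 ± 0.08 (adjusted p = 0.0457). For usp-14 the CPM were 204, 188, 270 and 218 on dimt-1 RNAi, against 249, 268, 243 and 230 on EV. Of 10 genes for ubiquitin and its transfer, 3 were lower, uba-1, the E1 enzyme, ubc-13, an E2 enzyme, and ufd-2, a chain-extending ligase. ubc-13 had 127, 139, 179 and 132 CPM, against 162, 172, 166 and 164 CPM on EV (-0.33 ± 0.06, adjusted p = 0.00152). Of 7 genes of the CDC-48 unfoldase and its cofactors, the 2 for CDC-48 itself were lower, cdc-48.1 by -0.22 ± 0.06 (adjusted p = 0.0156) and cdc-48.2 by -0.27 ± 0.05 (adjusted p = 0.00319). Of 7 genes that control subunit expression, 0 were called, and skn-1 had 285, 305, 281 and 297 CPM, against 264, 271, 268 and 266 CPM on EV (0.13 ± 0.06, adjusted p = 0.281 by edgeR; without library 3 0.14 ± 0.06, adjusted p = 0.1). Every skn-1 value on dimt-1 RNAi, that of library 3 included, was above every EV value, as for 3.52% of genes.

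The next comparison asked whether ribosome-bound subunit mRNA in muscle changed. In TRAP, edgeR called 0 of 33 subunits, as of 12164 genes tested (0%), with 1 subunit and 976 genes at an unadjusted p under 0.05. DESeq2 and limma voom with quality weights called 0 subunits too. The log2 fold changes were below 0 for 14 of 14 core and 16 of 19 regulatory genes, with medians of -0.23 and -0.10, against 0.05 over all genes. Scaling by library size alone moved the median of all genes to 0.16 and that of the subunits to -0.04, with 19 of 33 below 0, so their direction in TRAP depends on the scaling. Tissue markers moved in TRAP too. The summed level of the 8 intestine markers was 5226, 4333, 8193 and 5117 CPM on dimt-1 RNAi, against 7050, 7812, 9306 and 8569 CPM on EV, with libraries 1, 2 and 4 below and library 3 inside the EV range, and that of the sperm markers was 165, 72.1, 55.2 and 207 CPM, against 49.6, 48.9, 33.7 and 33.7 CPM on EV. Log2 fold changes were below 0 for 8 of 8 intestine and 11 of 12 body wall muscle markers, 0 of which were called, and above 0 for 18 of 19 sperm markers tested, also with 0 called. In at least 1 TRAP library, 6 sperm rows on dimt-1 RNAi and 15 on EV were at 0. The rows of spe-9 and spe-38 and 1 row of ssp-9 were at 0 in every EV library. The part of these differences in the subunit values was not tested.

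By gene, pbs-1 had the most negative TRAP value. It had 116, 121, 197 and 165 CPM on dimt-1 RNAi, against 203, 185, 176 and 220 CPM on EV (log2 fold change -0.39 ± 0.18, 95% interval -0.74 to -0.04; adjusted p = 0.608, edgeR). pbs-2 followed, with 59.3, 66.6, 107 and 65.0 CPM, against 82.9, 94.8, 122 and 79.6 CPM on EV (-0.35 ± 0.20, adjusted p = 0.736), and pbs-5 had 72.5, 90.1, 136 and 98.8 CPM, against 132, 123, 108 and 128 CPM on EV (-0.31 ± 0.18, adjusted p = 0.738). In each of these 3 catalytic genes libraries 1, 2 and 4 lay below every EV library, and library 3 did not.

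Between pbs-2 and pbs-5 in size were pas-2 (-0.34 ± 0.19, adjusted p = 0.708, edgeR) and pbs-7 (-0.34 ± 0.18, adjusted p = 0.684). pbs-6 and pbs-3, further beta subunits, had the smallest fold changes of the core. pbs-6 had 75.4, 83.1, 135 and 96.2 CPM on dimt-1 RNAi, against 116, 104, 91.9 and 87.3 CPM on EV (-0.03 ± 0.19, adjusted p = 1 by edgeR), and pbs-3 had 94.8, 101, 106 and 94.7 CPM, against 116, 88.0, 99.5 and 106 CPM on EV (-0.05 ± 0.14, adjusted p = 1). In both genes the groups overlapped. rpn-11 and rpn-12 were the lowest of the regulatory particle: rpn-11 had 60.8, 62.5, 83.7 and 66.8 CPM, against 75.5, 80.3, 86.5 and 78.1 CPM on EV (-0.23 ± 0.15, adjusted p = 0.806), and rpn-12 had 74.1, 89.6, 83.4 and 79.1 CPM, against 98.1, 99.4, 92.4 and 84.5 CPM on EV (-0.20 ± 0.14, adjusted p = 0.842). rpn-5 and rpn-13, a ubiquitin receptor, were the highest. rpn-5 had 96.6, 93.2, 93.8 and 85.8 CPM, against 88.2, 74.5, 80.4 and 92.6 CPM on EV (0.14 ± 0.14, adjusted p = 0.952), and rpn-13 had 75.5, 65.2, 88.2 and 75.4 CPM, against 62.3, 69.3, 68.1 and 87.4 CPM on EV (0.08 ± 0.16, adjusted p = 0.996). The lid gene rpn-6.1 had 126, 169, 130 and 120 CPM, against 130, 134, 143 and 150.2 CPM on EV, with library 2 of dimt-1 RNAi the highest of all (-0.03 ± 0.15, adjusted p = 1). rpn-10 had 76.6, 88.2, 100.5 and 92.5 CPM, against 106, 116, 78.4 and 96.8 CPM on EV (-0.15 ± 0.16, adjusted p = 0.956), and rpn-6.2 had 7.92, 7.15, 5.70 and 6.60 CPM, against 7.18, 8.39, 7.38 and 3.67 CPM on EV (0.04 ± 0.38, adjusted p = 1). For rpn-6.2 the interval of -0.71 to 0.79 was the widest of the subunits.

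No subunit was free of overlap between the TRAP groups of 4, where 2.24% of genes were lower without overlap. Without library 3, 7 core genes and 3 regulatory genes (rpn-11, rpt-2 and rpt-4) were, where 4.82% of genes were. No subunit was called without it (smallest adjusted p = 0.115 for pbs-1, edgeR), and 8 had an unadjusted p under 0.05, where 49 of 13118 genes were called (0.374%) and 1549 had an unadjusted p under 0.05. The TRAP libraries also differed in how many genes had low counts: 3591, 3674, 204 and 3248 genes had 1 to 20 counts on dimt-1 RNAi, against 384, 205, 535 and 310 on EV. Library 3 again stood with EV, and the part of this in the subunit values was not tested.

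TRAP was then compared with total RNA. Since total RNA held markers of other tissues and TRAP was enriched for those of body wall muscle, differences between tissues and differences in ribosome binding cannot be told apart. With edgeR over the 16 libraries and TMM scaling, 12 of 33 subunits were called on dimt-1 RNAi, 11 higher and 1 lower in TRAP, where 15.6% of genes were higher and 9.34% lower. On EV 12 were called too, 7 higher and 5 lower, where 15.7% were higher and 26.5% lower. The side of 0 rests on the scaling: by library size alone all 33 subunits were lower in TRAP on dimt-1 RNAi and on EV, and all were called, with medians of -1.16 and -1.28. Without dimt-1 RNAi library 1 or 2 of total RNA, 7 and 6 subunits were called on dimt-1 RNAi. Without library 3 of total RNA 17 were called, where 3567 of 16305 genes were. Without library 3 of TRAP 8 were called, where 3983 of 16467 genes were.

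A common scaling shifts all subunits alike, so it does not set their order along this ratio. rpn-6.1 was the highest, with a log2 fold change of 1.01 ± 0.12 on dimt-1 RNAi (adjusted p = 1.17e-06, edgeR) and 0.80 ± 0.12 on EV (adjusted p = 2.37e-05). rpn-12, a lid subunit, was at 0.69 ± 0.12 on dimt-1 RNAi (adjusted p = 0.000107) and 0.73 ± 0.12 on EV (adjusted p = 4.17e-05). rpn-2 was the lowest, at -0.53 ± 0.12 on dimt-1 RNAi (adjusted p = 0.00252) and -0.67 ± 0.13 on EV (adjusted p = 0.000209). On 1 scale for both fractions, rpn-6.1 had 209, 280, 212 and 198 CPM in TRAP, against 99.8, 105, 135 and 107 CPM in total RNA, on dimt-1 RNAi, and 211, 220, 234 and 243 CPM, against 124, 144, 130 and 124 CPM, on EV. rpn-2 had 90.1, 92.1, 89.3 and 78.9 CPM in TRAP, against 118, 121, 146 and 121 CPM in total RNA, on dimt-1 RNAi, and 69.1, 106, 92.4 and 98.3 CPM, against 133, 153, 153 and 142.3 CPM, on EV. For both genes, picked as the ends of this same ratio, the fractions did not overlap within either RNAi group on this scale. The share of all genes without such overlap was not computed. A ratio of counts within a library needs no scaling: rpn-6.1 had 2.32, 3.04, 2.37 and 2.51 counts for each rpn-2 count in TRAP on dimt-1 RNAi, against 0.842, 0.869, 0.921 and 0.884 in total RNA. On EV it had 3.06, 2.07, 2.53 and 2.48 in TRAP, against 0.931, 0.940, 0.849 and 0.874 in total RNA. This pair was chosen after its values were seen, and every TRAP library was above every total RNA library.

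The other subunits that passed were of both particles. Among core genes, pas-6 (0.65 ± 0.16 on dimt-1 RNAi, 0.50 ± 0.15 on EV), pas-7 (0.44 ± 0.10 and 0.28 ± 0.10, in the same order of groups) and pbs-4 (0.57 ± 0.18 and 0.45 ± 0.18) were higher in TRAP on both RNAi. pas-3 (0.52 ± 0.14), pas-5 (0.68 ± 0.21) and pbs-6 (0.47 ± 0.16) passed on dimt-1 RNAi, where they had 0.28 ± 0.14, 0.48 ± 0.21 and 0.24 ± 0.16 on EV, and pbs-1 passed on EV (0.36 ± 0.15 on dimt-1 RNAi, 0.47 ± 0.15 on EV). pbs-2 and pbs-5 did not pass on either (0.27 ± 0.18 and 0.40 ± 0.18 on dimt-1 RNAi, 0.20 ± 0.18 and 0.26 ± 0.18 on EV), and pas-1 was the lowest of the core (-0.07 ± 0.16 on dimt-1 RNAi, -0.12 ± 0.16 on EV). In the regulatory particle rpn-10 was higher on both (0.39 ± 0.13 and 0.42 ± 0.13), and rpt-4 (0.46 ± 0.14) and rpt-6 (0.31 ± 0.11), both ATPases, passed on dimt-1 RNAi. Lower in TRAP on EV were rpn-9 (-0.54 ± 0.15), rpn-1 (-0.39 ± 0.12), rpt-5 (-0.31 ± 0.11) and rpn-5 (-0.27 ± 0.10). rpn-11 was near 0 on both (-0.06 ± 0.12 on dimt-1 RNAi, -0.03 ± 0.12 on EV), and rpn-6.2 had -0.33 ± 0.27 on dimt-1 RNAi and -0.32 ± 0.27 on EV.

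**Figure D4:**
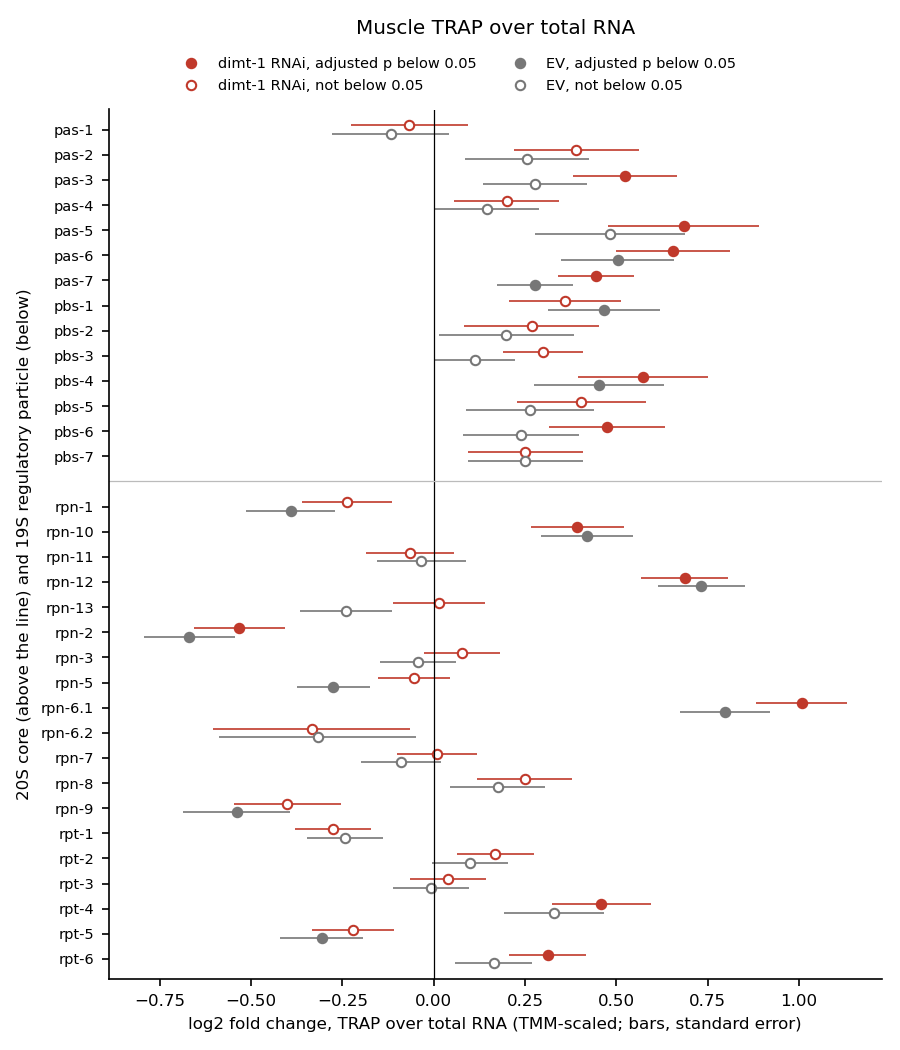
Log2 fold change of TRAP over total RNA for each subunit (rows; core above the grey line), with dimt-1 RNAi in red above EV in grey; bars are standard errors, and filled points have an adjusted p below 0.05. rpn-6.1 (1.01 on dimt-1 RNAi, 0.80 on EV) and rpn-12 lie farthest right and rpn-2 farthest left (-0.53 and -0.67).

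Whether dimt-1 RNAi changed the ratio of TRAP to total RNA was tested as an interaction, the form in which translation efficiency is tested. As for the ratio itself, changes in tissue make-up and in ribosome binding cannot be told apart in it. edgeR called 0 of 33 subunits, as of 15897 genes (0%), with 0 subunits and 2183 genes at an unadjusted p under 0.05, and DESeq2 and limma voom called 0 subunits as well. The values had a median of 0.12 over the subunits, against 0.16 over all genes. The subunit median was -0.01 with DESeq2 (0.02 over all genes), 0.02 without dimt-1 RNAi TRAP library 3 and 0.22 without dimt-1 RNAi total RNA library 3. Single values reached from -0.11 ± 0.22 (pbs-1, 95% interval -0.53 to 0.32) to 0.26 ± 0.18 (rpn-13, 95% interval -0.09 to 0.60). pas-3 (0.25 ± 0.20), pbs-6 (0.23 ± 0.22), rpn-5 (0.22 ± 0.14) and rpn-6.1 (0.21 ± 0.17) were the next highest. The intervals of single subunits allow changes of about the size seen in total RNA, so that neither a difference nor equality of the fractions is shown.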

How the data were processed

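The authors deposited raw read counts per gene as 1 table with a column for each of the 16 libraries. The submitters' processing notes name STAR 2.7.2b; the counting settings, annotation and use of strand for these libraries are not given in the sources used here. Most low counts were even, which counting each mate of a pair would give. Libraries held 34794250 to 49782576 counts, and no library repeated another. Genes were filtered with filterByExpr, scaled by TMM and tested with edgeR 4.0.16 (glmQLFit, glmQLFTest; R 4.3.3), within a fraction for RNAi and over all 16 libraries for TRAP over total RNA and its interaction with RNAi. P-values were adjusted by Benjamini-Hochberg over all genes tested, with a threshold of 0.05, and intervals are 1.96 SE. CPM values are TMM-scaled within a fraction. Levels per gene were divided by the union of annotated exons. Alternatives were DESeq2 1.42.0, limma 3.58.1 (voom with library quality weights), other scalings and filters, a replicate block and each library left out. The fits were tested on counts simulated with known changes. The simulation held no library unlike the others of its group, so it does not bear on calls that turn on library 3. Sequences were read from the RefSeq WBcel235 genome at starts of the Ensembl annotation. Subunits named in full were the catalytic ones, rpn-6.1, rpn-6.2, rpn-10, rpn-11, those called, and the 2 highest and 2 lowest of each particle in a comparison; for TRAP over total RNA, values per library are given only for rpn-6.1 and rpn-2. Members and lists were chosen with earlier results of these data known.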

Additional observations from a re-analysis of the deposited data

Results flagged for a closer look

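Of 128 checks of a group of 4 libraries, which covered the subunits named in full, the mean of each particle, their difference and dimt-1, 3 had a single library far from the other 3 by Dixon's ratio, where chance gives about 1 in 20. pbs-2 had 106.9 CPM in TRAP of dimt-1 RNAi library 3, against 59.31 to 66.58 CPM in the other 3 dimt-1 RNAi libraries. pas-2 had 324.7 CPM in total RNA of EV library 2, against 280.1 to 282.9 CPM in the other EV libraries. pbs-7 had 161.5 CPM in TRAP of EV library 2, against 103.3 to 106.7 CPM in the others, and its exons overlap another gene on the same strand over 7.97% of their bases.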

How the results depend on the processing

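For dimt-1 RNAi over EV in total RNA, the number of subunits called was 0 with edgeR, 2 with DESeq2 and 22 with limma voom with quality weights, and 0 to 26 with each library left out (26 without the library labelled dimt-1 RNAi 3). In TRAP and for the change of TRAP over total RNA it was 0 in every setting run. For TRAP over total RNA it was 12 on dimt-1 RNAi and 12 on EV, 33 and 33 with library size only, and 6 to 17 and 8 to 14 with each library left out. The core minus regulatory difference, dimt-1 RNAi minus EV, was -0.24 to -0.12 in total RNA and -0.20 to -0.08 in TRAP with each library left out, and that of dimt-1 itself -0.45 to -0.25 and 0.28 to 0.69. Same-numbered libraries of the RNAi groups did not deviate together (r = -0.01 to 0.06 in total RNA, -0.04 to 0.01 in TRAP), and same-numbered TRAP and total RNA libraries had r = 0.29, 0.04, 0.27 and 0.21 on dimt-1 RNAi and -0.01 to 0.02 on EV. Different-numbered TRAP and total RNA libraries had r = -0.35 to 0.21 on dimt-1 RNAi and -0.05 to 0.03 on EV. The labels do not say that a number marks a shared lysate, and not every pair passed 0.1, so the numbers were not taken as pairs. In the study's germline TRAP the input was taken from the lysate used for the pull-down. The main fits may therefore ignore a pairing. With a replicate block (the RNAi and number together, for TRAP over total RNA), 0 subunits were called in both RNAi comparisons and in the change, 17 for TRAP over total RNA on dimt-1 RNAi and 13 on EV. Values that crossed 0 follow as log2 fold changes, and the cause was not tested except that library size only shifts all genes together.

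With library size only, dimt-1 RNAi over EV in total RNA was 0.013 for rpn-5, and dimt-1 RNAi over EV in TRAP was 0.063 for pbs-3, 0.082 for pbs-6 and 0.067 for rpn-6.1, and TRAP over total RNA on dimt-1 RNAi was -0.88 for pas-3, -1.21 for pas-4, -0.73 for pas-5, -0.75 for pas-6, -0.97 for pas-7, -1.06 for pbs-1, -1.14 for pbs-2, -0.83 for pbs-4, -1.01 for pbs-5, -0.94 for pbs-6, -1.03 for rpn-10, -0.73 for rpn-12, -0.41 for rpn-6.1, -0.96 for rpt-4 and -1.10 for rpt-6, and TRAP over total RNA on EV was -0.96 for pas-5, -0.94 for pas-6, -1.15 for pas-7, -0.97 for pbs-1, -1.23 for pbs-2, -1.32 for pbs-3, -0.98 for pbs-4, -1.18 for pbs-5, -1.03 for rpn-10, -0.71 for rpn-12 and -0.63 for rpn-6.1, and the change of that ratio was 0.043 for pbs-7, 0.0059 for rpn-10 and 0.016 for rpn-6.2. With DESeq2, dimt-1 RNAi over EV in TRAP was -0.0042 for rpn-6.2, and TRAP over total RNA on EV was 0.064 for rpn-11, and the change of that ratio was -0.061 for pbs-2. With the size factors of DESeq2 in edgeR, dimt-1 RNAi over EV in TRAP was -0.0050 for rpn-6.2, and TRAP over total RNA on EV was 0.064 for rpn-11, and the change of that ratio was -0.061 for pbs-2. With a minimum of 10 counts per library, TRAP over total RNA on EV was 0.056 for rpn-11, and the change of that ratio was -0.021 for pbs-2. With limma voom, TRAP over total RNA on dimt-1 RNAi was 0.081 for pas-1, and the change of that ratio was 0.12 for pbs-7, 0.010 for rpn-10, 0.032 for rpn-12, 0.17 for rpn-6.2 and 0.064 for rpt-1. With no filter, the change of that ratio was 0.0071 for pbs-7. With the replicate block, the change of that ratio was 0.042 for pbs-7 and 0.027 for rpn-6.2. Without dimt-1 RNAi library 3 in both fractions, an alternative chosen after seeing the data, TRAP over total RNA on dimt-1 RNAi was 0.17 for pas-1, and the change of that ratio was 0.091 for pbs-7, 0.0015 for rpn-10, 0.069 for rpn-12 and 0.079 for rpt-1.

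With each library left out, the range of dimt-1 RNAi over EV in total RNA was -0.055 to 0.018 for rpn-5. The range of dimt-1 RNAi over EV in TRAP was -0.13 to 0.021 for pbs-3, -0.22 to 0.068 for pbs-6, -0.15 to 0.019 for rpn-6.1 and -0.15 to 0.15 for rpn-6.2. The range of TRAP over total RNA on dimt-1 RNAi was -0.23 to 0.061 for pas-1 and -0.18 to 0.049 for rpn-11. The range of TRAP over total RNA on EV was -0.056 to 0.0042 for rpn-11. The range of the change of that ratio was -0.29 to 0.034 for pbs-1, -0.17 to 0.26 for pbs-2, -0.067 to 0.35 for pbs-5, -0.11 to 0.16 for pbs-7, -0.18 to 0.054 for rpn-10, -0.16 to 0.086 for rpn-11, -0.18 to 0.072 for rpn-12, -0.26 to 0.095 for rpn-6.2 and -0.14 to 0.012 for rpt-1.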
